A study of Mus musculus with 6 samples.

Results

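The Cd28, Ctla4 and Icos locus is a stretch of mouse chromosome 1 that holds 3 related genes of T-cell costimulation. It was taken as all peaks of T-bet chromatin immunoprecipitation and sequencing (ChIP-seq) that overlap mm9 chr1:60700000-61150000, a window of 450 kb. It held 13 of the 8925 peaks in the 3 deposited peak lists: 10 of 7996 in wild-type (WT) replicate 1, 3 of 851 in WT replicate 2 and 0 of 78 in the T-bet knockout (KO) library. The window is defined by position alone, and it was chosen with earlier results of these data known.

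The series mapped T-bet binding in induced regulatory T (iTreg) cells made in culture from Balb/c mice of 4 to 10 weeks. Naive CD4 T cells from spleen and lymph nodes were activated on plates coated with antibodies to CD3 and to CD28, each at 10 µg/ml, and were cultured for 7 days with TGF-β1 at 33 ng/ml and IL-2 at 20 ng/ml. The WT and KO cells shared this treatment and the same rabbit serum against T-bet and the KO library serves as the background of the serum. The names of the deposited lists start with 1 number for WT replicate 2 and KO and with another for WT replicate 1. What this number marks is not stated, and if it is a batch, WT replicate 1 has no KO library of its own batch. The label of the KO cells names no allele, and the labels do not say whether the WT replicates came from separate mice or cultures. The antibody to CD28 binds the product of Cd28, a gene of the locus, and was used in all cultures. The lists hold positions and scores only, so the labelled cell type could not be checked against its marker genes here.

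Cd28 encodes the costimulatory receptor that a naive T cell needs beside its antigen receptor to become fully activated. Ctla4 encodes its inhibitory relative, which binds the same ligands, CD80 and CD86, more tightly and is carried by regulatory T cells as a main means of suppression. Icos encodes an inducible costimulator of activated and regulatory T cells, whose ligand is ICOSL. T-bet is the T-box transcription factor that directs the T helper 1 programme and is also present in a subset of regulatory T cells. In the RefSeq gene order of the assembly GRCm38.p6, protein-coding genes follow along the chromosome as Raph1, Cd28, Ctla4, Icos and Pard3b. Raph1 encodes a regulator of the actin cytoskeleton and Pard3b a cell polarity protein. That assembly is not the build of the peak lists, so peaks are given by position in mm9 and are assigned to no single gene, exon, intron or promoter.

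Of the member genes, 1 had an entry among the RefSeq promoter sequences, which cover 250 bases before to 50 bases after a gene's start. Cd28 and Icos were not matched. The Ctla4 window is shown because T-box factors are known to prefer the motif AGGTGTGA. It lies on the plus strand at chr1:60908775-60909074 of GRCm38.p6, positions that cannot be set beside the mm9 positions of the peaks. The capitals mark AGGTGT, the first 6 letters of the motif.
Ctla4: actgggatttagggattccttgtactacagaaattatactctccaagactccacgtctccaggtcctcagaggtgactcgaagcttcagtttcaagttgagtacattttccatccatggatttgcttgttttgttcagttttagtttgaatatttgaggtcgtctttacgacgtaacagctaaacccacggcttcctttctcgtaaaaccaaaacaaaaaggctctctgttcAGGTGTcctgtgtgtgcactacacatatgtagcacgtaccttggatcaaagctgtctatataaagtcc
The full motif AGGTGTGA was found 0 times on either strand of this window, and 1.28% of all 32851 promoter windows held it. Its core GTGTGA, which lies wholly within the motif, was found 0 times, against 14.5% of all windows. A window without the core cannot hold the full motif, so these searches are not separate results. The shorter AGGTGT, searched only after the sequence had been seen, occurred 1 time and began 18 bases before the start site; 13.7% of all windows held it. A match of letters describes the sequence and does not show a bound site.

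Across the locus, T-bet peaks fell at 9 separate sites once overlapping WT peaks were joined, and 3 of these sites carried a peak in both WT libraries. Over the whole genome 8.99% of such joined sites did. The other 6 sites had a peak in WT replicate 1 alone, and 0 had a peak in WT replicate 2 alone. The 3 shared sites were the 2 leftmost sites and the seventh from the left. They were separated by 30.8 kb and 144 kb between midpoints.

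The strongest site of the locus lay at chr1:60977303-60977657. Its score, the peak caller's own value as deposited by the authors, was 463 in WT replicate 1 and 184 in WT replicate 2, and the KO list held no peak there. The WT replicate 1 peak at chr1:60977336-60977629 ranked 209 of 7996 by score, within the top 2.61% of its list. On chromosome 1 it ranked 14 of 574 peaks. The WT replicate 2 peak ranked 142 of 851, within the top 16.7% of its list, and 9 of 70 on chromosome 1. It contained the whole of the WT replicate 1 peak. The midpoints of these peaks were 2.50 bp apart, against a median of 31.0 bp over all 760 overlapping pairs of the WT lists. Scores of different libraries have no stated common scale, so ranks within a list are given beside them.

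The next site, at chr1:60833797-60834102, scored 242 in WT replicate 1 and 123 in WT replicate 2, with no KO peak. It ranked 953 in the first list and 341 in the second. The peaks shared 224 bp, which was 73.9% of the WT replicate 1 peak and 98.7% of the WT replicate 2 peak. Their midpoints were 41.0 bp apart. This site was thus well above the middle of the WT replicate 1 list and slightly above the middle of the WT replicate 2 list, with 88.1% and 59.9% of peaks scoring lower.

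The third shared site, at chr1:60802936-60803373, was the leftmost of the locus. WT replicate 1 had 2 neighbouring peaks there, chr1:60802951-60803080 with a score of 75.2 and chr1:60803098-60803373 with a score of 180. WT replicate 2 had a single peak of 425 bp with a score of 77.7, which held the whole of the weaker peak and 95.3% of the stronger one. Such splits were uncommon: 32 of the 727 WT replicate 2 peaks that met WT replicate 1 met more than 1 of its peaks, or 4.40%. The stronger WT replicate 1 peak had a rank of 1704, but the weaker one (rank 7523) and the WT replicate 2 peak (rank 740) stood near the lower end of their lists. The lowest score in each WT list was 70.1. The 3 shared sites therefore had the same order of scores in both WT libraries, falling from the rightmost of them to the leftmost.

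**Figure D1:**
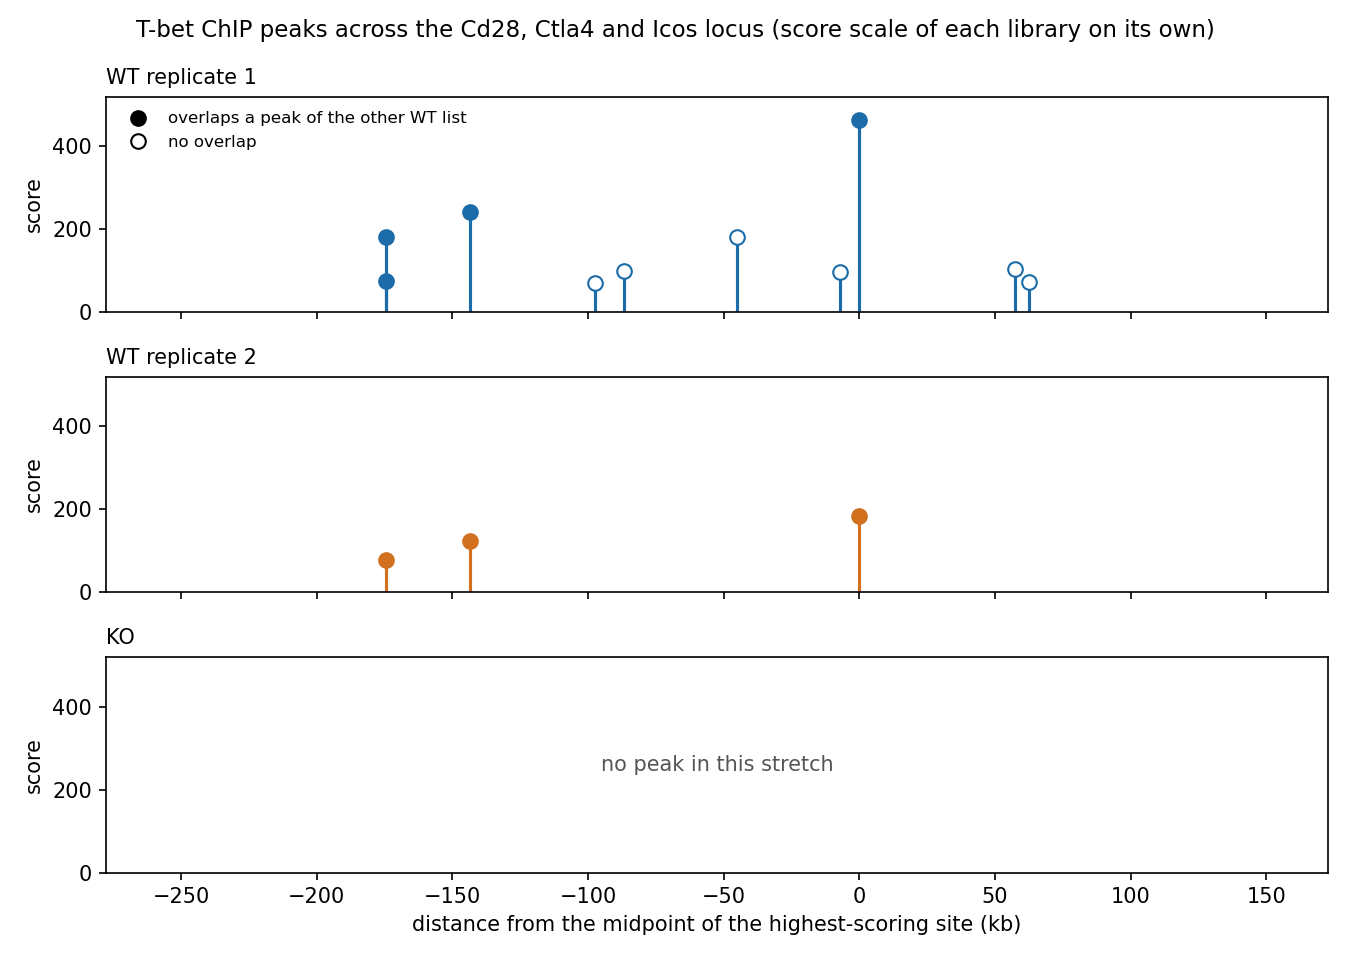
Position of each peak as distance in kb from the midpoint of the highest-scoring site (x axis) against its deposited score (y axis), for WT replicate 1, WT replicate 2 and KO; filled points overlap a peak of the other WT list and open points do not. The 3 WT replicate 2 peaks stand at the sites where WT replicate 1 scored 180, 242 and 463, and the KO panel is empty.

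The 6 sites found in WT replicate 1 alone had scores of 71.4 to 183. The highest, chr1:60932223-60932501, scored 183 and ranked 1659 of 7996, slightly above the stronger peak of the leftmost shared site. It had no counterpart in WT replicate 2, so the score in WT replicate 1 did not by itself separate sites that recurred from sites that did not. Of the remaining 5, chr1:61034571-61034784 scored 104, chr1:60890543-60890698 scored 99.6 and chr1:60970232-60970497 scored 97.4. These 3 stood near the middle of their list, whose median score was 108. The last 2, chr1:61039925-61040079 and chr1:60879881-60880021, scored 73.6 and 71.4 and were among the weakest of all WT replicate 1 peaks, with 2.21% and 0.475% of the list scoring lower.

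Neighbouring sites lay 5.32 to 57.2 kb apart, with a median of 34.4 kb over 8 distances. Over the whole WT replicate 1 list the median distance between neighbouring peaks, not joined to sites, was 60.5 kb. The shorter distance in the locus goes with its high peak count and is no separate result. Only 2 of the 8 distances in the locus were under 10 kb. The strongest site had a neighbour 7.12 kb to its left, found in WT replicate 1 alone with a score of 97.4. The 2 rightmost sites lay 5.32 kb apart. From the first to the last site the locus spanned 237 kb, and the outer 103 kb on the left and 110 kb on the right of the window held no peak in any list.

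Recurrence between the WT libraries was described as the share of peaks of one list that met a peak of the other by at least 1 bp. In the locus 4 of 10 WT replicate 1 peaks, or 40.0% (exact 95% interval 12.2 to 73.8%), met a WT replicate 2 peak, against 9.50% of the whole list (8.87 to 10.2%). In the other direction all 3 WT replicate 2 peaks of the locus met WT replicate 1, against 85.4% of that list, and with 3 peaks the interval reached down to 29.2%. The intervals cover counting error over peaks only. Peaks of a library are not replicates, and the 4 recurring WT replicate 1 peaks stand for 3 sites, so no test was made of the difference from the whole list.

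Peaks of higher score recur more often in the whole WT replicate 1 list, so the locus was also read by score. Its strongest peak fell in the highest decile of the list, of which 47.1% met WT replicate 2. The peak with a score of 242 fell in the ninth decile, of which 16.5% recurred. The peaks with scores of 180 and 183 fell in the eighth decile, of which 8.26% recurred, and the first of them did. The weak peak at the leftmost site fell in the lowest decile, of which 1.88% recurred. It lay wholly within the WT replicate 2 peak that also met its stronger neighbour. The 3 peaks in the fifth decile and the other 2 in the lowest did not recur.

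**Figure D2:**
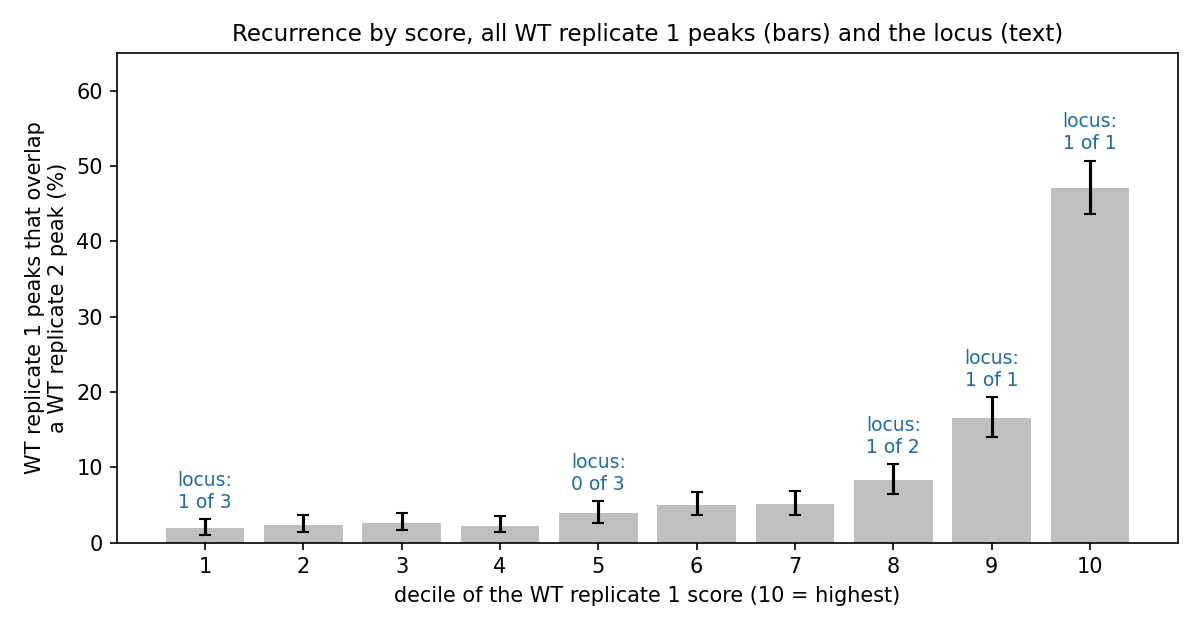
Share of WT replicate 1 peaks (y axis, percent) that overlap a WT replicate 2 peak, by decile of the WT replicate 1 score (x axis); bars are all peaks of the list, error bars are exact 95% binomial intervals and the text counts the peaks of the locus. The share climbs from 1.88% in the lowest decile to 47.1% in the highest, and the locus has 1 recurring peak in each of the highest 3 deciles and 1 in the lowest.

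The locus held peaks of low and of high score in both WT lists, though 5 of the 10 deciles of WT replicate 1 held no locus peak. The median score of its WT replicate 1 peaks was 102, against 108 for the list, and 4 of the 10 lay above the list median. Its 3 WT replicate 2 peaks had a median of 123, against 108, and 2 of them lay above. The 4 recurring WT replicate 1 peaks scored 75.2 to 463 and the 6 others 71.4 to 183, so the ranges overlapped. Peak widths were 130 to 303 bp in WT replicate 1 and 227 to 425 bp in WT replicate 2.

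**Figure D3:**
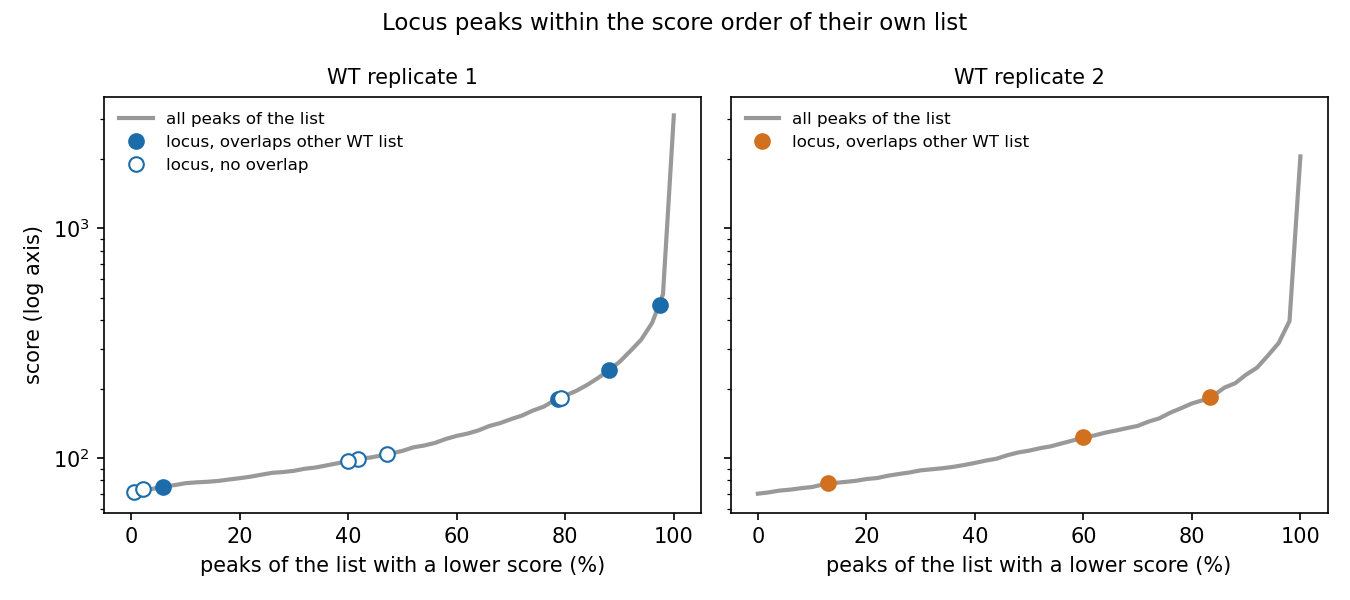
Score of each locus peak (y axis, log scale) against the percentage of its own list with a lower score (x axis), for WT replicate 1 and WT replicate 2; the grey line is the whole list, filled points overlap a peak of the other WT list and open points do not. The locus holds peaks from the bottom of the WT replicate 1 list, at 0.475%, up to 97.4%, and from 12.9% to 83.3% in WT replicate 2.

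The number of peaks was set against 5852 windows of the same length, laid end to end over the autosomes and X. The locus had 10 WT replicate 1 peaks against a mean of 1.36 per window, and 2.00% of windows held at least as many. The share was 4.66% over the 2511 windows with any WT replicate 1 peak, and 3.86% when only scores of at least 100 were counted in windows and locus. It had 3 WT replicate 2 peaks against a mean of 0.145, and 1.14% of windows held at least as many, or 2.67% of those with a WT replicate 1 peak. At least 3 sites with a peak in both WT lists were present in 0.906% of windows. Both WT counts were matched or passed, without a KO peak, in 30 windows, or 0.513%. Of the 438 windows on chromosome 1, 4, or 0.913%, reached the count of WT replicate 1 and 6, or 1.37%, that of WT replicate 2. The window that holds most of the locus is among all of these. The locus thus lay among the windows with most peaks, and other parts of the genome had as many.

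**Figure D4:**
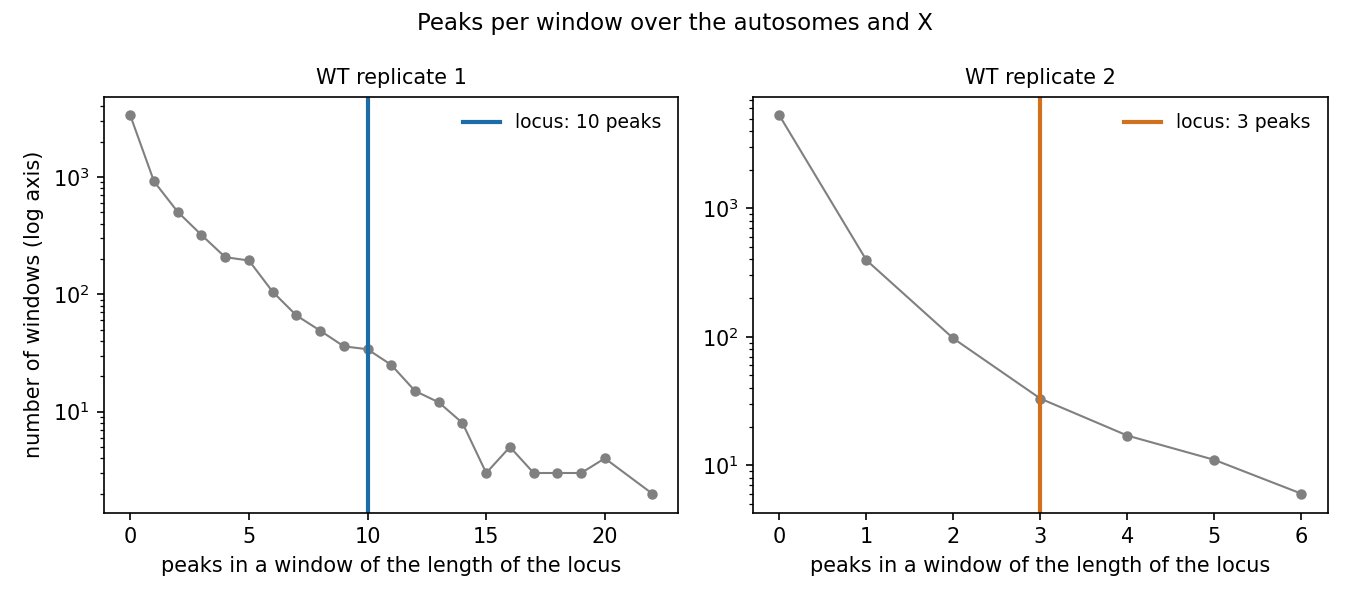
Number of windows (y axis, log scale) by the number of peaks they hold (x axis), over windows of the length of the locus on the autosomes and X, for WT replicate 1 and WT replicate 2; the coloured line marks the locus. Most windows hold no peak, 57.1% in WT replicate 1 and 90.4% in WT replicate 2, and the locus lies in the right tail at 10 and 3 peaks.

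Windows with many WT replicate 1 peaks held WT replicate 2 peaks more often than windows in general, but not always. Of the 117 windows with at least 10 WT replicate 1 peaks, 33, or 28.2%, held no WT replicate 2 peak. The share over all windows was 90.4%. The median over the 117 was 1.00 WT replicate 2 peak. In 35 of the 117, or 29.9%, WT replicate 2 had at least 3 peaks, as in the locus, against 1.14% of all windows. Over the 117 windows together, 13.6% of WT replicate 1 peaks met WT replicate 2. A share of at least 40.0%, as in the locus, was reached in 6 of the 117, or 5.13%. The window that holds most of the locus reached 33.3%, since it also takes in 2 WT replicate 1 peaks to the right of the locus that did not recur.

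The surroundings of the locus were sparser than the locus, but not sparser than windows in general. The stretch of equal length on its left had 2 WT replicate 1 peaks and that on its right 3, with highest scores of 161 and 192. The mean over all windows was 1.36. Neither stretch had a peak of WT replicate 2 or KO, as was so for 90.4% and 99.0% of windows. The nearest peaks outside the window were chr1:60467421-60467625 (WT replicate 1 score 161), 232 kb before its edge, and chr1:61194476-61194665 (score 127), 44.5 kb beyond it. For WT replicate 2 the nearest were 5.80 Mb before and 11.1 Mb beyond, at chr1:54898684-54898972 (score 72.3) and chr1:72290653-72291177 (score 70.8). The 3 WT replicate 2 peaks of the locus were thus the only ones of that list within 17.4 Mb of chromosome 1. WT replicate 1 had 37 further peaks in that stretch, 1 of them in the top decile of its list with a score of 489. That these lack a WT replicate 2 counterpart follows from how the stretch was drawn. Gaps of this size were not rare in a list of 851 peaks: 16.6% of its neighbouring distances were at least as long as the 5.90 Mb to the left and 6.50% as long as the 11.3 Mb to the right, against a median of 0.755 Mb.

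The KO comparison asks whether the same serum gave peaks in the locus without T-bet. None of the 10 WT replicate 1 and 3 WT replicate 2 peaks met a KO peak, against 0.550% and 5.41% of the whole lists. The exact 95% intervals for these counts of 0 reached 30.8% and 70.8%. The nearest KO peaks lay 15.7 Mb before the window, at chr1:45008055-45008152 (score 246), and 23.9 Mb beyond it, at chr1:85096302-85097571 (score 75.5). The KO list had 3 peaks on all of chromosome 1, and 99.0% of windows of this length held no KO peak. The absence of a KO peak therefore did not set the locus apart. With 1 KO library and no read counts, the level of KO signal at these sites is unknown, and WT and KO could not be tested over samples.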

How the data were processed

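The 3 ChIP libraries, 2 WT and 1 KO, were grouped by their titles; the 3 input libraries were not analysed here. Per the submitters' processing notes, build mm9 and the tools MACS 1.4, Bowtie2 and CASAVA were used. The tools' settings, read filters and control libraries are not given in the labels or files used. Each list, called on a single library, has 5 columns: chromosome, start, end, name and score. The score deposited by the authors has no stated scale. Sequencing depth is unknown. Starts were counted from 1.

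Peaks sharing at least 1 bp were counted as overlapping; WT peaks that overlapped were joined to sites. Windows of 450 kb were tiled over the 19 autosomes and X of mm9, with lengths from GenomeInfoDb. Intervals are exact (Clopper-Pearson, 95%). No p-value was computed, since WT and KO could not be tested over samples and the locus was chosen with earlier results known. The overlap step was checked on simulated data, where 200 of 200 planted overlaps were found and 0 false ones. All 13 peaks of the locus are named. The locus, its genes and the motifs were chosen with earlier results of these data known. Promoter sequences are from RefSeq (GRCm38.p6). Alternatives covered the score minimum, the overlap rule, joining of peaks, list length, extension of KO peaks, the edges of the locus, window placement, motif letters and leaving out a WT library. A planned comparison of the 3 proteins and a search of peak sequences were not run. Scripts ran under Python 3.11.15 with matplotlib 3.10.9, scipy 1.17.1 and numpy 2.4.6.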

Additional observations from a re-analysis of the deposited data

How the results depend on the processing

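Of 59 alternatives, 48 left a share or median within its exact 95% interval or a count within 1.5 times. The median over 3 WT replicate 2 peaks has no such interval, so any change counted. The 48 do not measure robustness, because some alternatives could change nothing and the intervals were wide. Narrowing the window by 50 kb removed no peak, since the outer 103 kb and 110 kb were empty. A fall from 100% to 33.3% still counted as within its interval. A score of at least 100 left 5 WT replicate 1 peaks and 5 sites, put the median scores at 183 (WT replicate 1, within its wide interval) and 154 (WT replicate 2), and raised the share of windows with at least as many peaks to 3.86% (WT replicate 1) and 1.52% (WT replicate 2). Counting only windows with a WT replicate 1 peak gave 4.66% and 2.67%. Cutting WT replicate 1 to its 851 highest peaks, with scores of at least 256, left 1 peak, the strongest. It met WT replicate 2 (1 of 1, or 100%). Of the 800 peaks in the top decile of WT replicate 1, 47.1% met WT replicate 2. After the cut, the share of WT replicate 2 locus peaks met fell to 33.3%, 1 of 3. The share of all WT replicate 2 peaks met after the cut is not given, so the 33.3% has no background. The number of sites ranged from 3 without WT replicate 1 to 10 without WT replicate 2. Without WT replicate 2, the 2 neighbouring WT replicate 1 peaks at the leftmost site were no longer joined. The letters AGGTGT, chosen after seeing the data, gave 1 match in the Ctla4 promoter against 0 for AGGTGTGA. The share of WT replicate 1 peaks that recurred was 30.0% with a reciprocal overlap of at least 50% and 30.8% with the window widened by 100 kb. The whole-list share of 9.50% is for an overlap of at least 1 bp. None is given for the reciprocal rule, so the 30.0% cannot be set beside it. The KO count was 0 under every alternative run. That outcome was fixed in advance, since the nearest KO peaks lay 15.7 Mb and 23.9 Mb from the window. No paired analysis was possible because KO has 1 library and no result comes from a test over samples. Depth, unknown for all 3 libraries, limits what absence from the 2 shorter lists can show.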
